A study of Homo sapiens with 3 samples.

Results

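The 10 genes described here, PHGDH, PSAT1, PSPH, SHMT2, MTHFD2, ASNS, PCK2, CHAC1, TRIB3 and DDIT3, were taken by name from the 25006 genes that could be named on the arrays. They were grouped as genes of serine, asparagine and phosphoenolpyruvate metabolism and of the stress response that the transcription factor ATF4 is known to induce. The rule went by name and used no measured value, but the genes were chosen with earlier results of these data known. All 10 had at least 1 probe, with 14 probes and 23 spots on each array. The brightest probe of each gene, used for every value unless another probe is named, stood well above background in the 6 channels.

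U87 is an established human glioblastoma cell line. U87WT 5 is a clone of it that was stably transfected with GFP-IGF1R, the receptor of insulin-like growth factor 1 fused to a green fluorescent protein, and the labels give its receptor as nuclear. U87Mut 5 carries GFP-IGF1R1025x-1100x-1120x, in which lysines needed for nuclear entry were mutated, and its receptor is given as non-nuclear. Both clones keep the receptor of the parental line, each model is 1 clone, and no parental sample is analysed here, so a difference between the receptors and a difference between 2 clones cannot be told apart. RNA of U87WT labeled with Cy5 and RNA of U87Mut labeled with Cy3 were hybridized together to a 2-color Agilent array in each of 3 conditions: FBS-free medium for 24 h, IGF1 (50 nM, 24 h), and IGF1 (50 nM, 24 h) with OSI906, a kinase inhibitor that acts on both IGF1R and the insulin receptor. The dose of OSI906 reads 0.5 μM in the sample's title but 500 μM in its medium label. Each condition had 1 array and the dyes were never swapped. Array and condition therefore cannot be told apart, the dye bias of a probe cannot be told apart from a difference between the clones, and a difference between conditions has no replicate check.

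ATF4 is translated when a kinase phosphorylates the initiation factor eIF2α, which happens upon amino acid shortage or misfolded protein, and growth factor signaling through mTORC1 also raises ATF4. It switches on enzymes and transporters that supply amino acids. PHGDH, PSAT1 and PSPH carry out the steps from a glycolytic intermediate to serine, SHMT2 and MTHFD2 pass the carbon of serine to folate in mitochondria, ASNS makes asparagine, and PCK2 makes phosphoenolpyruvate in mitochondria. CHAC1 degrades glutathione, TRIB3 is a pseudokinase that restrains ATF4 and AKT, and DDIT3 encodes CHOP, a transcription factor of prolonged stress.

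ATF4 and its C/EBP partners bind a composite element commonly written TGATGNAA. The element was searched on both strands from 250 bases before to 50 after each gene start of RefSeq (GRCh38.p14), with no other motif searched. It stood in 1270 of 35116 windows (3.62%), or in at least 1 window of 1217 of 27305 genes (4.46%). Of the 8 members with a window, 2 held it, ASNS and CHAC1, and of the 24 other ATF4-induced genes with a window, 9 did. The stretches around both matches are shown because these genes had unlike patterns on the arrays. Each is printed 5′ to 3′ along its gene's strand with the match in capitals. In ASNS (minus strand, chr7:97872443-97872502) the match ran from base -68 to -61 before the gene start, and in CHAC1 (plus strand, chr15:40953236-40953295) from -209 to -202, where it reads on the reverse strand.
ASNS: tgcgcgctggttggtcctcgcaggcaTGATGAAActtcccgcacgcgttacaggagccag
CHAC1: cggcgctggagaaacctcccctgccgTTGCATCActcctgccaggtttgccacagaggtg
The other windows did not hold these letters, and PSPH and SHMT2 had no window.

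On the 3 arrays, between 50.1% and 52.8% of probes were marked as well above background for both dyes, and no spot was saturated. The IGF1 array had spots with a Cy5 local background of up to 66985, against at most 373 on the others, and spots marked as not uniform (384, 572 and 5 in FBS-free medium, with IGF1, and with IGF1 and OSI906) were left out of the background fit. All 9 markers of the mesenchymal U87 line (VIM, CD44, FN1, CAV1, ANXA1, ANXA2, LGALS1, S100A6 and NES) were well above background in the 6 channels, with a summed log2 level of 18.1 to 18.2 in U87WT and 17.6 to 17.8 in U87Mut. Of 15 markers of blood, endothelium, epithelium, oligodendrocytes and neurons, 8 were above background in the 6 channels, 4 in some and 3 in none, with a summed level of 11.0 to 11.5 in U87WT and 10.8 to 11.0 in U87Mut. The epithelial genes KRT5 and CDH1 were among the 3, while EPCAM, also epithelial, was above background in the 6 channels with a clone ratio (log2 of U87WT over U87Mut, in the order of conditions above) of 0.36, 0.53 and 0.20 (limma adjusted p = 0.046). The neuronal genes SNAP25 (10.34, 9.43 and 9.88 in U87WT) and RBFOX3 (8.50, 8.58 and 9.81) had the highest log2 levels of the 15. The ratio of SNAP25 was 1.06, 1.03 and 0.91 (limma adjusted p = 0.00272). RBFOX3 in U87WT was 1.23 higher with IGF1 and OSI906 than with IGF1. CDKN2A, which is deleted in U87, was also marked above background in the 6 channels (log2 level 7.57 to 8.02), so that mark alone does not show that a gene is expressed. Its clone ratio was 0.27, 0.38 and 0.43 (limma adjusted p = 0.0156), so at such a level a limma call does not show it either. The IGF1R probe had a clone ratio of 0.07, 0.23 and 0.09; whether it lies within the transfected sequence is not known here. The part of these markers in the results below was not tested.

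The clone ratio, which asks how U87WT and U87Mut differed within a condition, is given as log2 of U87WT over U87Mut, so that a negative value means a higher level in U87Mut. In FBS-free medium all 10 genes were lower in U87WT, from -1.86 (TRIB3) to -0.39 (PSPH), with a median of -0.77 against -0.0016 over the 24764 genes measured on all arrays. A size of 0.5 was passed downwards by 8 of 10 genes, where 3.76% of all genes and 6.12% of the 15187 genes well above background in the 6 channels passed it, and upwards by 0 (3.97% of all genes). With IGF1 the ratio was past -0.5 for 3 of 10 genes (2.89% of all genes and 4.66% of those well above background) and past 0.5 for 0 (4.62% of all genes), and the median was -0.24. With IGF1 and OSI906 it was past -0.5 for 7 of 10 (3.48% of all genes and 5.66% of those well above background) and past 0.5 for 0 (3.57% of all genes), with a median of -0.52. The SD of a single ratio, from the difference between the FBS-free and IGF1+OSI906 arrays over 27229 probes well above background, was 0.143, which holds noise and response together. Nearer to the limit than that lay ASNS (-0.60), PHGDH (-0.60), SHMT2 (-0.48) and PSPH (-0.39) in FBS-free medium, MTHFD2 (-0.50) with IGF1, and MTHFD2 (-0.61), PSAT1 (-0.52), ASNS (-0.51) and PCK2 (-0.51) with IGF1 and OSI906. The FBS-free ratio of ASNS was -0.28 when all its probes were averaged.

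**Figure D1:**
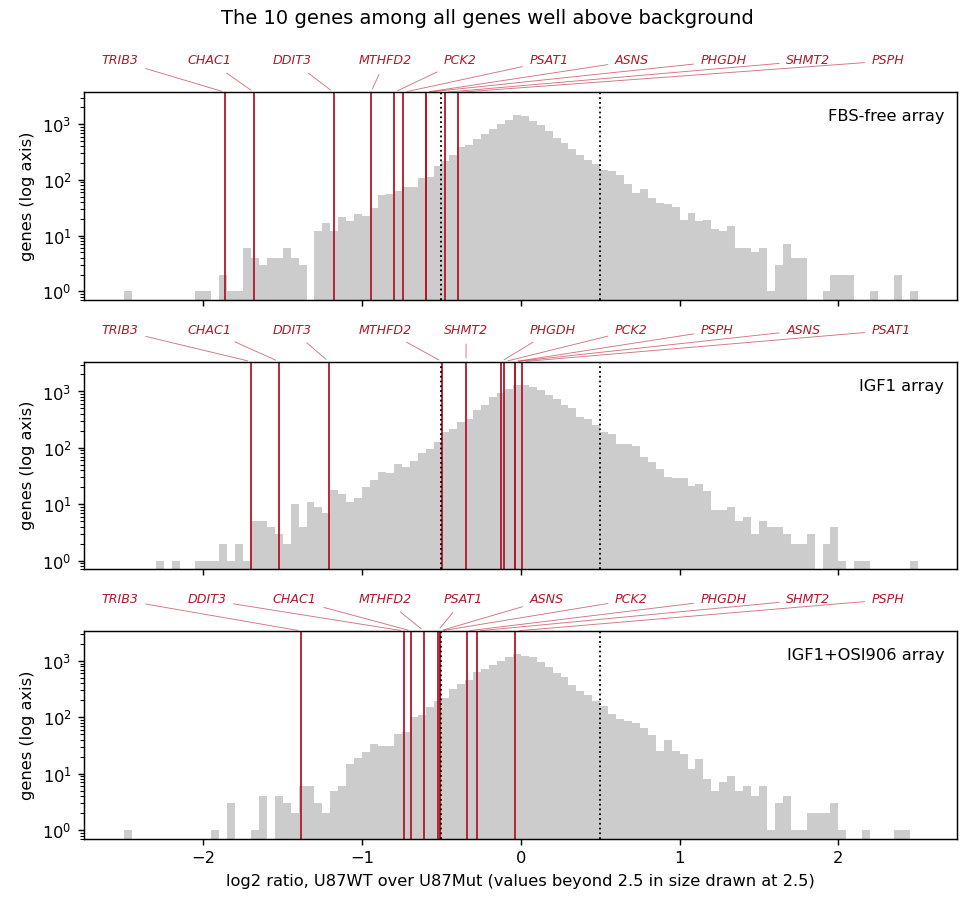
Histograms (log count axis) of the clone ratio of the 15187 genes well above background on each array, with 1 red line per gene of the 10 and dotted lines at 0.5 and -0.5. The 10 genes all lie left of 0 in FBS-free medium, where 8 are past -0.5; TRIB3, CHAC1 and DDIT3 stay in the left tail on every array while PSAT1, ASNS and PCK2 lie near 0 with IGF1.

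A pair of patterns can be described among the members, as read from the values. CHAC1, TRIB3 and DDIT3 were past -0.5 on all 3 arrays. This held for 365 of 24764 genes (1.47%), and for 364 of the 15187 well above background (2.4%). The 7 metabolic enzymes were lower in U87WT in FBS-free medium by smaller amounts, and 5 of them (PHGDH, PSAT1, PSPH, ASNS and PCK2) had a ratio between -0.13 and 0.01 with IGF1. Over the alternatives of processing the IGF1 ratio ran from -0.14 to 0.71 for ASNS, from -0.03 to 0.73 for PSAT1, from -0.15 to 0.50 for PHGDH, from -0.37 to 0.24 for PCK2 and from -0.40 to 0.42 for PSPH. It ran from -0.69 to 0.01 for MTHFD2, from -0.37 to 0.27 for SHMT2, from -1.71 to -1.05 for CHAC1, from -1.79 to -0.99 for TRIB3 and from -1.40 to -0.78 for DDIT3, and the highest value of each member was that with median in place of loess normalization.

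Over the 3 arrays, the mean ratio was tested against 0 with limma (Benjamini-Hochberg at 5% over 57318 probes). The arrays are different conditions, so responses to the treatments add to the error, and p-values measure the spread between these arrays. The test called 5 of 10 genes lower in U87WT and 0 higher, where it called 4.36% of all probes lower and 4.49% higher, or lower 6.96% of genes by their brightest probe and 11.2% of the genes well above background in the 6 channels. The calls were TRIB3 (-1.65 ± 0.10, mean ± SE, limma adjusted p = 0.00359), DDIT3 (-1.04 ± 0.10, 0.00959), MTHFD2 (-0.68 ± 0.09, 0.0191), SHMT2 (-0.37 ± 0.05, 0.0199) and CHAC1 (-1.30 ± 0.20, 0.0271), each lower on 3 of 3 arrays. PCK2 (-0.47 ± 0.13, limma adjusted p = 0.128), PHGDH (-0.35 ± 0.09, 0.106), ASNS (-0.38 ± 0.12, 0.149), PSAT1 (-0.42 ± 0.15, 0.201) and PSPH (-0.16 ± 0.08, 0.391) did not pass. The count rests on single arrays and on the normalization: limma called 2 members without the FBS-free array, 9 without the IGF1 array and 3 without the IGF1+OSI906 array, and 0 with the signals processed by the scanner software or with median in place of loess normalization, where no probe of the array passed the adjustment and 10026 and 5085 probes had an unadjusted p under 0.05.

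**Figure D2:**
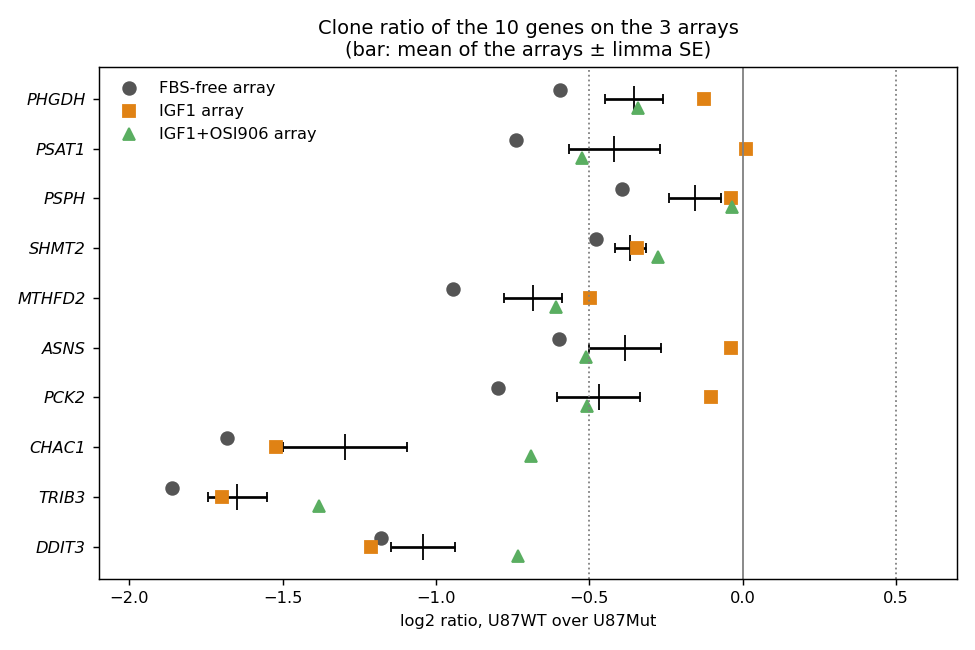
Clone ratio (log2, U87WT over U87Mut; x axis) of each of the 10 genes on the 3 arrays (gray circle, FBS-free; orange square, IGF1; green triangle, IGF1+OSI906), with the mean of the arrays ± limma SE as a black bar and dotted lines at 0.5 and -0.5. TRIB3, CHAC1 and DDIT3 lie left of -0.5 on every array, and the IGF1 value is the one nearest to 0 for PHGDH, PSAT1, MTHFD2, ASNS and PCK2.

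Among the serine synthesis enzymes, PSAT1, the aminotransferase of the second step, had the widest swing. Its normalized log2 level in U87WT was 13.65 in FBS-free medium, 14.24 with IGF1 and 13.73 with IGF1 and OSI906, and in U87Mut 14.39, 14.23 and 14.25. The level in U87WT was high only with IGF1, where it met that of U87Mut (ratio 0.01), and in the other conditions it stood 1.67-fold and 1.44-fold below it. PHGDH, which commits 3-phosphoglycerate to serine, had levels of 12.87, 12.95 and 13.00 in U87WT and 13.47, 13.08 and 13.34 in U87Mut. Here U87WT stayed within a narrow range and U87Mut was lowest with IGF1, so that the ratio went from -0.60 to -0.13 and -0.34. PSPH, the phosphatase of the last step, had levels of 10.41, 10.59 and 10.50 in U87WT and 10.80, 10.63 and 10.54 in U87Mut. Its ratio was -0.39 in FBS-free medium and -0.04 and -0.03 on the other arrays. PSPH has a near-identical pseudogene, and whether its probe also binds that transcript was not tested.

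SHMT2, which moves the carbon of serine onto folate in mitochondria, had a clone ratio of -0.48, -0.35 and -0.28. Its level in U87WT was 12.47, 12.58 and 12.70 and in U87Mut 12.95, 12.93 and 12.98, and no U87WT value reached a U87Mut value. MTHFD2, the next enzyme of that mitochondrial pathway, had levels of 10.85, 11.14 and 11.13 in U87WT and 11.79, 11.63 and 11.74 in U87Mut. The clones did not overlap for this gene either. Its probe was spotted repeatedly, which gives a technical error: the ratio was -0.94 ± 0.04 (SD, 10 spots) in FBS-free medium, -0.50 ± 0.04 (8 spots) with IGF1 and -0.61 ± 0.06 (9 spots) with IGF1 and OSI906. The spots of the first array (-0.98 to -0.86) did not overlap those of the second (-0.55 to -0.45), but spots of 1 array share its labeling and are not replicates of a condition.

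ASNS, asparagine synthetase, followed PSAT1. Its level in U87WT was 14.28, 14.68 and 14.34 and in U87Mut 14.88, 14.72 and 14.85, so that U87WT was 1.52-fold lower in FBS-free medium, 1.03-fold lower with IGF1 and 1.43-fold lower with IGF1 and OSI906. The dimmer ASNS probes had ratios of -0.18, 0.04 and -0.14, and of -0.06, 0.10 and 0.09. PCK2, the mitochondrial phosphoenolpyruvate carboxykinase, had levels of 8.32, 8.81 and 8.74 in U87WT and 9.12, 8.91 and 9.25 in U87Mut. In U87WT it was low in FBS-free medium only, and the ratio was -0.80, -0.10 and -0.51. A second, dimmer PCK2 probe had ratios of -0.03 with IGF1 and -0.20 with IGF1 and OSI906; it was left out in FBS-free medium, where its Cy5 spot (179) was below its own local background (207).

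TRIB3 showed the widest difference of the members between the clones. Its level in U87WT was 12.69, 13.34 and 13.34 and in U87Mut 14.55, 15.04 and 14.72, which made U87WT 3.63-fold, 3.25-fold and 2.61-fold lower. CHAC1, the glutathione-degrading enzyme, had levels of 9.77, 10.07 and 10.91 in U87WT and 11.45, 11.60 and 11.59 in U87Mut. The U87Mut values lay within 0.14 of each other, and U87WT was highest with OSI906, which left the clones 3.21-fold, 2.87-fold and 1.61-fold apart. A second CHAC1 probe had ratios of -1.39 in FBS-free medium and -0.70 with IGF1 and OSI906, and was left out with IGF1 because of a bright Cy5 background. DDIT3 had levels of 9.57, 9.53 and 10.09 in U87WT and 10.75, 10.74 and 10.82 in U87Mut, with U87WT 2.27-fold, 2.31-fold and 1.66-fold lower. The highest U87WT level was below the lowest U87Mut level for 8 of the 10 members, all but PSAT1 and PSPH, where this held for 14.5% of all genes and 18.2% of those well above background. The gap was narrow for ASNS (14.68 against 14.72), PHGDH (13.00 against 13.08) and PCK2 (8.81 against 8.91), and with median in place of loess normalization these, SHMT2 and MTHFD2 had an IGF1 ratio above 0. In bulk RNA a change in fewer cells and a smaller change in every cell cannot be told apart.

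**Figure D3:**
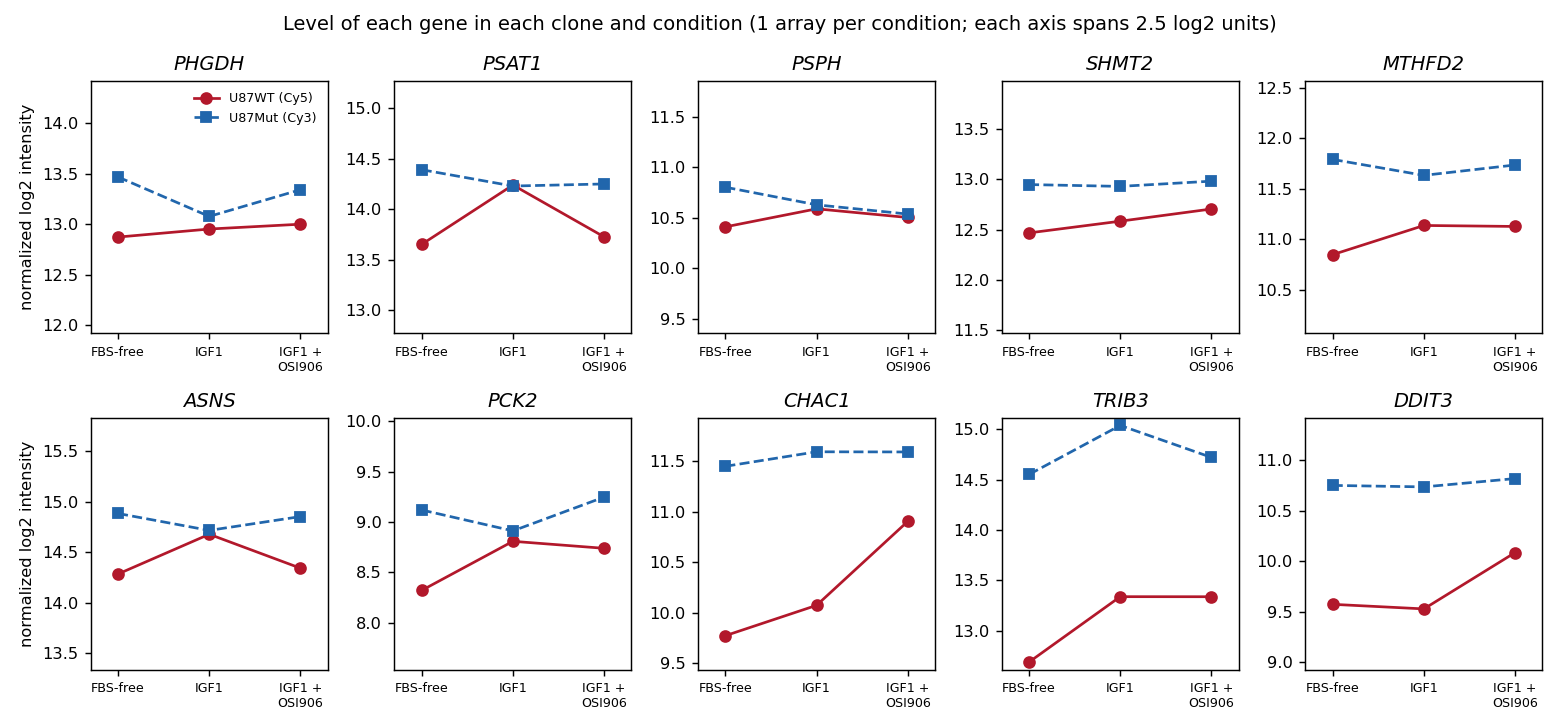
Normalized log2 intensity (y axis, of equal span in every panel) of the 10 genes in U87WT (red circles) and U87Mut (blue squares, dashed) in the 3 conditions, 1 array each; lines join the values of a clone. PSAT1, ASNS and PCK2 in U87WT approach U87Mut with IGF1, while TRIB3, CHAC1 and DDIT3 remain apart and CHAC1 in U87WT is highest with IGF1 and OSI906 (10.91).

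The response to IGF1 was read within each clone as the difference in log2 level between the IGF1 and FBS-free arrays, which carries no test. In U87WT the difference was above 0 for 9 of 10 genes, with a median of 0.30, and past 0.5 for 2 (1.39% of all genes and 2.07% of those well above background) and past -0.5 for 0 (1.57% of all genes). These were TRIB3 (0.65) and PSAT1 (0.59). PCK2 (0.49), ASNS (0.39), CHAC1 (0.30) and MTHFD2 (0.29) came next, followed by PSPH (0.18), SHMT2 (0.12), PHGDH (0.08) and DDIT3 (-0.05). In U87Mut it was above 0 for 2 of 10, with a median of -0.16 and none past 0.5 in either direction (0.581% of all genes higher and 0.989% lower). Above 0 were TRIB3 (0.49) and CHAC1 (0.14), and the largest negative value was that of PHGDH (-0.39). The largest positive difference was that of TRIB3 in both clones.

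These sizes depended on the scaling. Without normalization between arrays the median of all genes was -0.13 in U87WT and -0.14 in U87Mut, 4 of 10 members were below 0 in U87WT, and past 0.5 were 0 members in U87WT and 1 in U87Mut, PHGDH, which was lower (-0.63). With median in place of loess normalization 8 members were past 0.5 upwards in U87WT and 6 downwards in U87Mut, the median of the members being 0.67 and -0.52. Under both the members' median was higher in U87WT than in U87Mut.

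The change of the clone ratio from FBS-free medium to IGF1, a difference of 2 within-array ratios, was above 0 for 9 of 10 genes, with a median of 0.40 against 0.02 over all genes. It was past 0.5 for 3 of 10, PSAT1 (0.75), PCK2 (0.69) and ASNS (0.56), where 2.11% of all genes and 3.26% of genes well above background were, and past -0.5 for 0 (1.39% of all genes). MTHFD2 (0.45), PHGDH (0.47) and PSPH (0.35) followed. SHMT2 (0.13), CHAC1 (0.16), TRIB3 (0.16) and DDIT3 (-0.03) moved by 0.16 or less. Which genes moved depended on the processing. With median in place of loess normalization the ratio went from -1.99 to -0.99 for TRIB3 and from -1.95 to -1.05 for CHAC1. It then went from -1.46 to -0.78 for DDIT3 and from -0.65 to 0.265 for SHMT2. In the deposited table it went from -1.86 to -1.26 for TRIB3 and was -0.39 and -0.40 for PSPH.

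With OSI906 added to IGF1, the members lay on both sides of their IGF1 levels in U87WT. The difference from the IGF1 array was past 0.5 upwards for CHAC1 (0.83) and DDIT3 (0.56), 2 of 10 genes against 2.23% of all genes and 3.6% of those well above background, and downwards for PSAT1 (-0.51), 1 of 10 against 2.4%. ASNS was lower by 0.34, a 1.26-fold difference, and PCK2 (-0.07), MTHFD2 (-0.01), TRIB3 (-0.00) and PHGDH (0.05) stayed near 0. In U87Mut 0 members were past 0.5 in either direction (1.22% of all genes higher and 0.695% lower); PCK2 (0.34) and PHGDH (0.27) had the highest values and TRIB3 (-0.32) the lowest. The clone ratio of CHAC1 accordingly moved by 0.83 and that of PSAT1 by -0.53, where 1.53% of all genes moved past 0.5 upwards and 2.37% downwards.

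Against FBS-free medium, IGF1 with OSI906 left all 10 genes above 0 in U87WT, with a median of 0.26, and CHAC1 (1.13), TRIB3 (0.65) and DDIT3 (0.51) past 0.5 (1.48% of all genes and 2.4% of those well above background), with 0 past -0.5 (1.4% of all genes). In U87Mut 5 of 10 were above 0 and 0 were past 0.5 (0.42% of all genes higher and 0.46% lower). CHAC1 thus stood 2.19-fold higher in U87WT and 1.10-fold higher in U87Mut than in FBS-free medium. ASNS (0.06) and PSAT1 (0.07) in U87WT had the smallest differences. Without normalization between arrays 5 of 10 were below 0 in U87WT, with a median of -0.0087 against -0.15 over all genes, and with the signals processed by the scanner software 2 of 10 were. These contrasts share arrays, so they are given side by side and are not independent of each other.

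**Figure D4:**
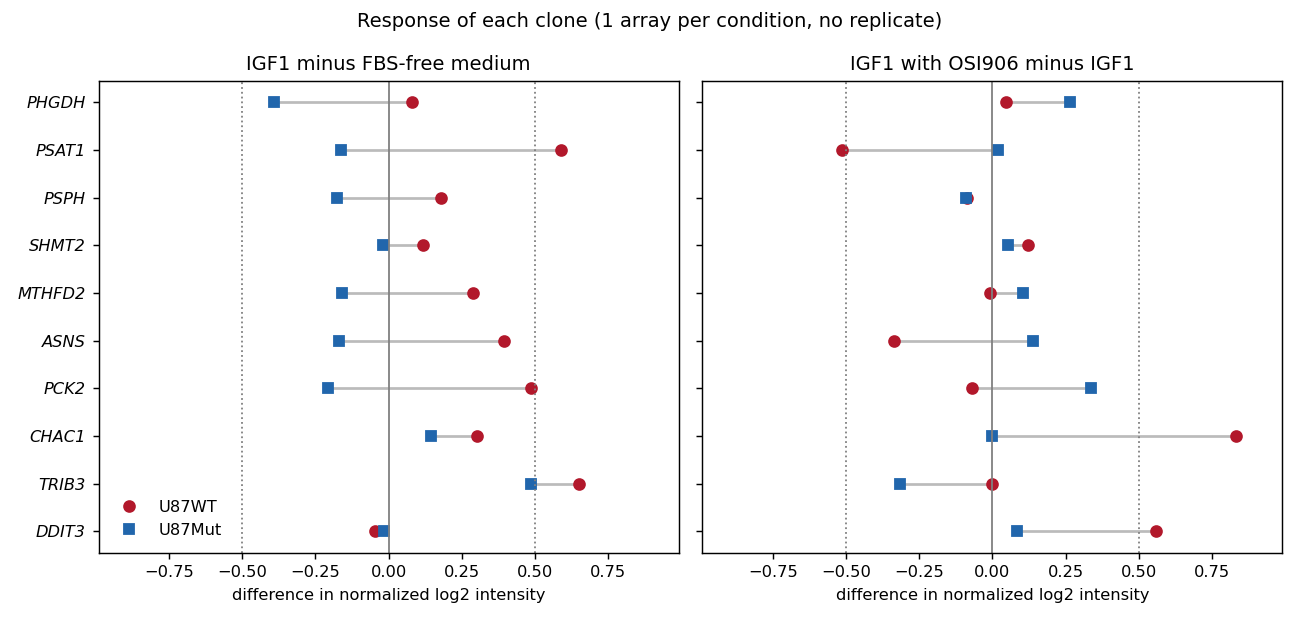
Difference in normalized log2 intensity (x axis) for each of the 10 genes in U87WT (red circles) and U87Mut (blue squares), on the left for IGF1 minus FBS-free medium and on the right for IGF1 with OSI906 minus IGF1; dotted lines mark 0.5 and -0.5. With IGF1 the U87WT value lies right of the U87Mut value for 9 of 10 genes, and with OSI906 CHAC1 (0.83) and DDIT3 (0.56) stand out to the right and PSAT1 (-0.51) to the left in U87WT.

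Other genes of the pathway were read from lists of names. ATF4 itself had a clone ratio of -0.52, -0.23 and 0.13 and did not pass the test (-0.21 ± 0.12, limma adjusted p = 0.444); its mRNA in U87WT was 0.35 higher with IGF1 and 0.53 higher with IGF1 and OSI906 than in FBS-free medium, and in U87Mut 0.06 higher and 0.11 lower. ATF4 is controlled largely by translation, which arrays do not measure. In the list of eIF2α kinases, phosphatases and ATF4, limma called 1 of 8 genes higher and 2 lower in U87WT (7.28% and 6.96% of all genes, or 11.5% and 11.2% of those well above background), and the median ratio was 0.03, -0.21 and -0.03. EIF2AK2, a kinase that senses double-stranded RNA, was 0.55 higher with IGF1 in U87Mut and 0.14 in U87WT.

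The 30 other ATF4-induced genes had median ratios of -0.80, -0.35 and -0.44. Past -0.5 were 16, 13 and 14 of them, against 3.76%, 2.89% and 3.48% of all genes. Among genes well above background the shares were 6.12%, 4.66% and 5.66%. Past 0.5 were 0, 0 and 1 (3.97%, 4.62% and 3.57% of all genes). Limma called 13 of the 30 lower in U87WT (6.96% of all genes and 11.2% of those well above background) and 0 higher. On all 3 arrays 11 of 30 were past -0.5 (1.47% of all genes and 2.4% of those well above background). SLC7A11, which imports cystine, had ratios of -1.81, -1.68 and -1.45 (limma adjusted p = 0.0027), and CTH, which makes cysteine, had -1.41, -0.99 and -0.93 (0.0081). GDF15, a secreted stress factor, had -1.56, -1.15 and -1.42 (limma adjusted p = 0.0037) and SLC7A5, a transporter of large neutral amino acids, -1.52, -1.16 and -1.34 (0.0034). Both are known to be induced when amino acids run short. DDIT4, an inhibitor of mTORC1, had -1.46, -1.29 and -0.55 (limma adjusted p = 0.0317) and ATF3, a transcription factor, -0.91, -1.23 and -1.10 (0.004).

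With IGF1, the 30 genes had a median difference from FBS-free medium of 0.24 in U87WT and of -0.0035 in U87Mut. In U87WT 8 were past 0.5 upwards (1.39% of all genes) and 1 downwards (1.57%). In U87Mut 0 were past 0.5 upwards (0.581% of all genes) and 2 downwards (0.989%). How these counts depend on the scaling between arrays was not tested. The largest in U87WT were GDF15 (0.89), the glycine transporter SLC6A9 (0.84) and the glutamine transporter SLC1A5 (0.82), against 0.49, -0.14 and 0.22 in U87Mut. In U87Mut, BCAT1, an aminotransferase of branched-chain amino acids, was 0.55 lower and STC2, a secreted glycoprotein, 0.81 lower. STC2 had the same direction in U87WT (-0.76), and with OSI906 it was 1.65 higher in U87WT and 1.63 higher in U87Mut than with IGF1 alone.

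Lists of neighboring pathways had medians nearer to 0. Of 12 further folate and glycine genes limma called 4 lower in U87WT (6.96% of all genes and 11.2% of those well above background) and 0 higher, and the median ratio was -0.11, -0.06 and -0.15. TYMS, thymidylate synthase, had ratios of -1.00, -0.99 and -0.90 (limma adjusted p = 0.0026). Of 14 measured chaperones and other genes induced by ATF6 or XBP1 in the endoplasmic reticulum, limma called 1 higher and 2 lower (11.5% and 11.2% of genes well above background), with a median ratio of -0.19, -0.16 and -0.22. Past -0.5 were 4, 1 and 5 of the 14 (6.12%, 4.66% and 5.66% of genes well above background). Past 0.5 were 1, 2 and 1 (6.29%, 7.24% and 5.72%). CALR, a calcium-binding chaperone, was higher in U87WT (0.73, 0.85 and 0.66, limma adjusted p = 0.004) and HERPUD1, which serves degradation of misfolded protein, lower (-0.71, -0.80 and -0.53, 0.0074). With IGF1, SDF2L1 (0.89) and PDIA4 (0.52) were past 0.5 in U87WT and HSPA5 (0.62) in U87Mut.

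**Figure D5:**
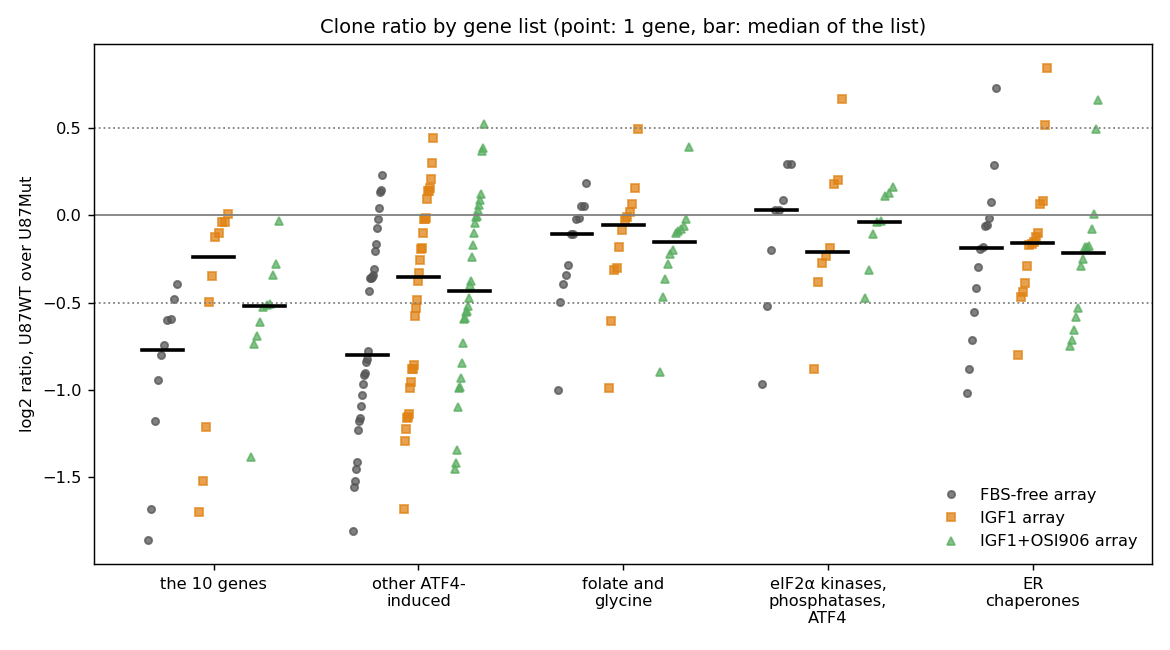
Clone ratio (log2, U87WT over U87Mut; y axis) of every measured gene of 5 lists (x axis) on the 3 arrays (gray circles, FBS-free; orange squares, IGF1; green triangles, IGF1+OSI906), with the median of each list as a black bar and dotted lines at 0.5 and -0.5. In FBS-free medium the medians of the 10 genes (-0.77) and of the other ATF4-induced genes (-0.80) lie below those of the other 3 lists (-0.19 to 0.03).

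The paralogs of the members, which encode related proteins, did not share 1 pattern. CHAC2, also a glutathione-degrading enzyme, had ratios of -0.77, -0.51 and -0.43 (limma adjusted p = 0.017), and MTHFD2L, the other mitochondrial enzyme of that step, -0.29, -0.18 and -0.20 (0.0369). SHMT1, the cytosolic form of SHMT2, had -0.34, -0.01 and -0.47 (limma adjusted p = 0.191). TRIB1 had 0.30, -0.18 and 0.27 (limma adjusted p = 0.578) and TRIB2 -0.25, 0.33 and 0.14 (0.786), so neither shared the sign of TRIB3 on every array. PCK1, the cytosolic form of PCK2, was well above background in 3 of the 6 channels and had no value with IGF1. The log2 levels of CHAC2 (6.55 to 7.38), SHMT1 (6.84 to 7.44) and TRIB2 (6.80 to 7.45) lay below that of the deleted CDKN2A (7.57 to 8.02). Those of MTHFD2L (7.64 to 8.20) lay close to it. For these paralogs neither the background mark nor a limma call shows that the gene is expressed.

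The 6 channel levels of each member, centred on its own mean, averaged -0.56, -0.26 and -0.20 in U87WT and 0.37, 0.30 and 0.36 in U87Mut. MTHFD2 and SHMT2 followed the mean of the other members most closely (Pearson's r = 0.994 and 0.988 over the 6 levels) and PSAT1 (0.772) and PSPH (0.705) least. Among 998 other genes well above background with a range of at least 1 on the log2 scale, CTH (r = 0.997), TIMM44 (0.991), MFAP2 (0.991), SMAGP (0.986) and SLC7A11 (0.981) had the pattern most like the members' mean. The 6 levels come in pairs from 3 arrays and are mostly a difference between the clones, so these correlations are a description.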

How the data were processed

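RNA of U87WT 5 (Cy5) and U87Mut 5 (Cy3) was compared on 3 arrays of 1 slide, 1 per condition. The deposited scanner intensity values are median brightness of each spot and its local background, unnormalized, from Feature Extraction 12.0.3.1 per the file headers; the same software deposited processed intensity values. The authors also deposited log2 ratios made with limma, which were matched within 0.0001 for 58341 of 58341 probes per array by an all-spot normexp fit (offset 20), within-array loess and averaged spots (medians -0.00661, -0.0074 and -0.00304), so their scale and direction are known.

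From the scanner values, with limma 3.58.1 (R 4.3.3, package data.table, version 1.17.8), normexp (offset 50) was fitted without spots marked as not uniform, and 2075 control spots were removed from 62976. Population outliers had weight 0 in loess and were left out, Aquantile was applied between arrays, and spots of a probe were averaged. Genes were named by RefSeq transcript (GRCh38.p14) for 34892 of 36770 probes, and the brightest probe with values on all 3 arrays stood for a gene. Calls are by size (0.5, log2) within an array and by limma (lmFit, eBayes, intercept only) over the arrays. The number of arrays limits the precision.

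The members, lists and tests were chosen with earlier results of these data known. Named genes are all members, ATF4, paralogs, IGF1R, from each list up to 6 past 0.5 with 1 sign on every array and up to 3 by IGF1 response in each clone, and the 5 most correlated genes. PPP1R15A, SHMT1 and MTHFD2L each stand in a pair of lists, and MANF of the chaperone list had no named probe. Values of 2 listed genes are not reported here. Alternatives changed the background fit, offset, signals, normalization, probes, moderation and arrays. On simulated data for the clone difference, 181 of 200 probes moved by 1.5 were recovered with 4 others among 57318. That shift is larger than the mean difference of every member but TRIB3, so it does not give the recovery of smaller differences.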

Additional observations from a re-analysis of the deposited data

How the results depend on the processing

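Members past 0.5 in either direction numbered 7 to 10 in FBS-free medium, 3 to 6 with IGF1 and 3 to 7 with IGF1 and OSI906 over the alternatives; TRIB3, CHAC1 and DDIT3 were past -0.5 on every array under all 10 alternatives for the clone ratio. With median in place of loess normalization the clone ratio was past 0.5 in either direction for 6 members with IGF1 and 3 with IGF1 and OSI906, the IGF1 response upwards for 8 in U87WT and downwards for 6 in U87Mut, and limma called 0; ASNS and PSAT1 then had IGF1 ratios of 0.71 and 0.73. With the deposited table the IGF1 count was 5 and limma called 3. Without normalization between arrays the IGF1 response was past 0.5 for 0 members in U87WT and downwards for 1 in U87Mut, and that to IGF1 with OSI906 against FBS-free medium upwards for 1 and downwards for 1 (median of all genes -0.15 in both); quantile normalization gave 1, upwards, for the IGF1 response of U87Mut. With the scanner software's signals the IGF1 response of U87WT was past 0.5 for 0 members and limma called 0. Limma called 1 member with the background fitted on all spots (TRIB3; 157 probes higher and 557 lower, against 2573 and 2498), 1 with an offset of 0, 3 with a trend in the prior variance and 2 to 9 with each array left out in turn. The trend ended the calls of TRIB3 (limma adjusted p = 0.445) and CHAC1 (0.1), and over the alternatives the adjusted p of TRIB3 ran from 4.25e-05 to 0.445. The probe counts were 420 and 274 with an offset of 0, 179 and 606 with the deposited table, and 1116 and 807 without the FBS-free, 405 and 332 without the IGF1+OSI906 array. The cause was not tested. Of 104 counts of members under an alternative 84 were within 1.5 times the count reported. They include counts that could not differ, since leaving out the normalization between arrays does not change the clone ratio. For a count reported as 0 such a range has no meaning. No value past 0.5 in the reported processing changed sign, but values nearer to 0 did. The IGF1 ratio of ASNS, reported as -0.04, was 0.51 with the deposited table. That of PHGDH, reported as -0.13, was 0.50 with median in place of loess normalization. No paired analysis of the conditions was possible because each had 1 array. The clones are paired within every array, and the limma test of their ratio uses that. The mean in place of the median spot signal was not run, since no mean signal is used here. With 1 array per condition the limit is the number of arrays, and no difference between conditions has an error.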
